A study of Mus musculus with 6 samples.

Results

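The genes described here are 10 members of the mouse MHC class I antigen presentation pathway, H2-K1, H2-D1, B2m, Tap1, Tap2, Tapbp, Tapbpl, Nlrc5, Erap1 and Calr. They were found by gene symbol, and all 10 are among the 19386 genes of the authors' deposited expression table. RNA was sequenced from bone marrow-derived macrophages, which are macrophages grown in culture from marrow cells. The marrow came from wild-type C57BL/6 mice that had been exposed either to room air or to cigarette smoke, with 3 libraries in each group. Both groups of cells were grown in medium with 10% supernatant of L929 cells, a source of macrophage growth factor, and harvested on day 11, so the smoke was met by the animal and not added to the dish. The comparison asks whether exposure of the animal leaves a difference in the RNA of macrophages grown from its marrow. The age of the mice and the length of exposure are not given in the sources used here. The protocols speak of cells from each mouse, but no label ties a library to an animal, so p-values measure the spread between libraries. The expression p-values come from the authors' DESeq2 fit of 24 libraries, 18 of them not used here. Their spread is thus not that of these 6 libraries alone.

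MHC class I molecules carry short peptides from inside the cell to its surface, where CD8+ T cells inspect them. Proteasomes cut proteins into peptides, the TAP transporter moves these into the endoplasmic reticulum, and trimming and loading proteins fit them into the groove of a heavy chain paired with beta-2-microglobulin. Macrophages present peptides in this way at rest and raise the pathway in response to interferons, and NLRC5 is the transcriptional activator that acts on class I promoters.

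None of the 10 genes passed the test for a difference between macrophages from smoke-exposed and room-air mice. The authors' deposited table called 0 of 10 at an adjusted p under 0.05 in DESeq2, against 7.69% of all 12082 genes tested, with 4.15% higher and 3.53% lower after smoke. Of the 10 log2 fold changes in the authors' deposited table, 7 were above 0 and 3 below, from -0.21 for Erap1 to 0.45 for Tapbpl, with a median of 0.15. Over all genes tested in the authors' deposited table the median was -0.0029 and 49.7% were above 0. One unadjusted p among the members was under 0.05 (1 of 10, Tapbpl), as it was for 2755 of the 12082 genes. Expression was deposited as group means and not per library, so whether the libraries of the groups overlap is not known for any of these genes. In bulk RNA, fewer cells of a type and less RNA per cell cannot be told apart.

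Read per kilobase of the longest transcript, the members covered a wide range of levels in the macrophages, and the order was nearly the same in both groups. Beta-2-microglobulin stood first, with a mean normalized count per kilobase of 9111 in room air and 9219 after smoke. H2-D1 followed at 4727 and 5486, and H2-K1 at 2787 and 3133. The chaperone gene Calr came next at 1818 and 1689, and Tapbp at 703 and 844. The chains that form the class I molecule were thus the most abundant of the 10, and the genes of the transporter and of trimming lay far lower. Tap1 had 156 and 173 per kilobase. Erap1 (135 and 116) and Tap2 (122 and 137) exchanged the seventh and the eighth place between the groups. Nlrc5 (61.1 and 53.4) and Tapbpl (30.3 and 40.2) were lowest. Without values per library the spread behind these levels is not known, so neighbours in this order were not tested against each other.

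**Figure D1:**
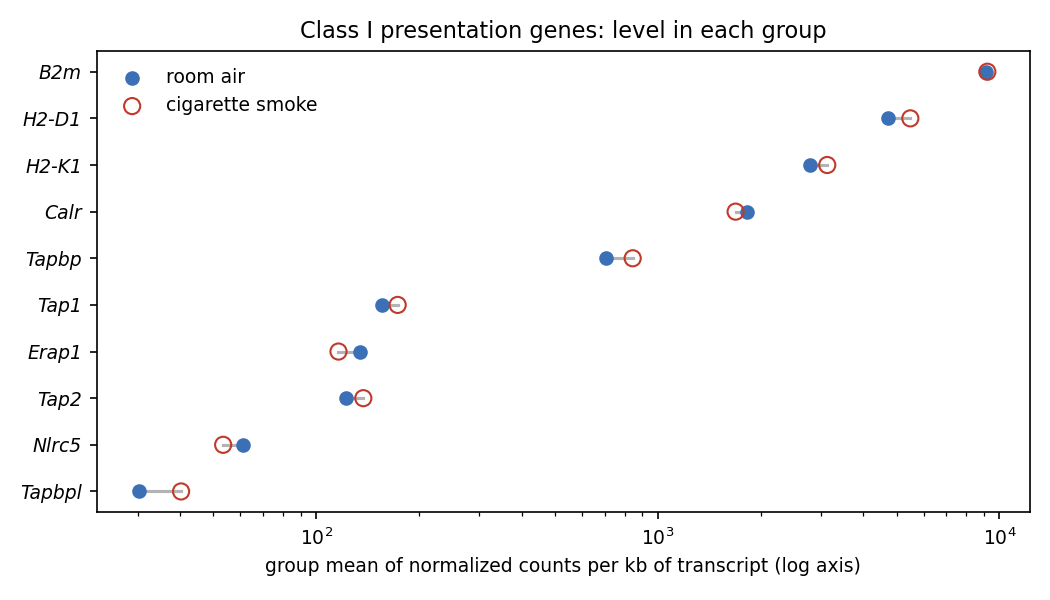
Mean normalized count per kilobase of the longest transcript (log axis) for the 10 genes, with room air as filled and cigarette smoke as open points. Each gene's 2 points lie close together beside the range from Tapbpl at 30.3 to B2m at 9111 in room air.

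Nlrc5 encodes the activator of class I transcription. It lies on chromosome 8 from 94434356 to 94527272 on the plus strand of GRCm38, as do all positions here. Its mean normalized count in the authors' deposited table was 463 in room air and 405 after smoke, which is -0.20 in log2 (SE 0.17, DESeq2 adjusted p = 0.535). The 95% interval of that change ran from -0.54 to 0.14. The gene overlaps 9330175E14Rik on the opposite strand and Mir7072 on its own. The library kit keeps strand, but whether the counting used it is not given in the sources used here, so for this and the other overlaps named below the reads of partner genes may be mixed.

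H2-K1 and H2-D1 encode the 2 classical heavy chains of the C57BL/6 mouse, which hold the peptide. H2-K1 lies on chromosome 17 from 33996017 to 34000347 on the minus strand, and its mean in the authors' deposited table went from 5223 in room air to 5872 after smoke. That is a log2 change of 0.17 (SE 0.16, DESeq2 adjusted p = 0.568 in the authors' deposited table), with a 95% interval from -0.14 to 0.47. H2-D1 lies on the same chromosome from 35262730 to 35267499 on the plus strand, and the authors' deposited table gave means of 9936 and 11532. Its log2 change was 0.22 (SE 0.18, DESeq2 adjusted p = 0.519 in the authors' deposited table), with an interval from -0.14 to 0.57. The upper ends of these intervals allow folds of up to 1.39 for H2-K1 and 1.48 for H2-D1, and the lower ends folds of 0.910 and 0.909. The coding sequences of H2-K1 and H2-D1 matched at 985 of 1116 aligned columns, or 88.3%, and they resemble further class I genes, so reads may have been shared between them and the split of reads between H2-K1 and H2-D1 is uncertain.

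B2m, the light chain shared by all class I molecules, lies on chromosome 2 from 122147686 to 122153083 on the plus strand and overlaps Patl2 on the other. Its means in the authors' deposited table were 7836 in room air and 7928 after smoke. The log2 change was 0.017 (SE 0.17, DESeq2 adjusted p = 0.971 in the authors' deposited table), with a 95% interval from -0.31 to 0.35. It was the member with the smallest difference.

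The promoters of the chains were read for 4 short motifs on both strands in windows from 250 bases before to 50 after the start, taken from RefSeq on GRCm38.p6. Of the members, 7 had a window (8 windows in all); Tap2, Tapbpl and Nlrc5 did not match. The letters GGGATTCCC, of the kind bound by NF-kappa B, stood in the windows of H2-K1 and H2-D1 and in 0.353% of all 32851 windows. Interferon-type letters, GAAANNGAA, stood in those of B2m and Erap1 and in 8.56% of all windows. X2-type letters, TGACGNNA, stood in that of Tap1 and in 6.61% of all. The common CCAAT was found in the windows of B2m, Calr, H2-D1, H2-K1, Tap1 and Tapbp and in 37.4% of all. The 30-base stretches below are shown because the heavy chain pair shares nearly all of its letters while B2m carries another element, with the motif in capitals. They lie on chromosome 17 at 34000439 to 34000468 (minus strand), on chromosome 17 at 35262913 to 35262942 (plus strand), and on chromosome 2 at 122147537 to 122147566 (plus strand).
H2-K1: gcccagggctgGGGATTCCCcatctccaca
H2-D1: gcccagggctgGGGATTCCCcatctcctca
B2m: tataagaacatGAAACTGAAaatgggaaag
The stretches of H2-K1 and H2-D1 differed at 1 of 30 bases. A match describes letters in a window and says nothing of binding in these cells.

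Tap1 and Tap2 encode the 2 subunits of the peptide transporter and both lie in the MHC on chromosome 17. Tap1 (34187553 to 34197225, plus strand) had means of 609 in room air and 677 after smoke in the authors' deposited table. The log2 change of Tap1 was 0.15 (SE 0.21, DESeq2 adjusted p = 0.746 in the authors' deposited table), with a 95% interval from -0.27 to 0.56. It overlaps Psmb9, an immunoproteasome gene, on the opposite strand. Tap2 (34203527 to 34216321, plus strand) had means of 420 and 473 in the authors' deposited table. The log2 change of Tap2 was 0.16 (SE 0.12, DESeq2 adjusted p = 0.444 in the authors' deposited table), with the narrowest interval of the 10, from -0.072 to 0.40. It overlaps Gm20496 and Gm15821 on the opposite strand. The 2 subunits thus had nearly equal estimates, and both 95% intervals span 0.

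Tapbp, or tapasin, bridges the transporter and the empty class I molecule. It lies on chromosome 17 from 33915899 to 33929292 on the plus strand, with Zbtb22 overlapping it on the same strand and Gm19412 on the other. The authors' deposited table gave means of 2038 in room air and 2446 after smoke, or 0.27 in log2 (SE 0.16, DESeq2 adjusted p = 0.312). The 95% interval ran from -0.042 to 0.57. Tapbpl, the tapasin-related peptide editor, lies on chromosome 6 from 125223933 to 125231860 on the minus strand and overlaps Vamp1. It had the largest estimate of the members, with means of 71.2 and 94.6 and a log2 change of 0.45 (SE 0.22) in the authors' deposited table. The unadjusted DESeq2 p in the authors' deposited table was 0.0422 and the adjusted p 0.199, and the 95% interval ran from 0.016 to 0.89. Tapbpl was also the least abundant of the 10. Calr encodes calreticulin, the lectin chaperone of the loading complex, and lies on chromosome 8 from 84841850 to 84846934 on the minus strand. Its means in the authors' deposited table were 3971 and 3690, or -0.11 in log2 (SE 0.14, DESeq2 adjusted p = 0.724). The interval ran from -0.39 to 0.17.

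Erap1, the aminopeptidase of the endoplasmic reticulum that trims peptides to length, lies on chromosome 13 from 74639568 to 74693201 on the plus strand and overlaps Cast on the other. The authors' deposited table gave means of 760 in room air and 656 after smoke, or -0.21 in log2 (SE 0.14, DESeq2 adjusted p = 0.382). Its 95% interval ran from -0.48 to 0.062.

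**Figure D2:**
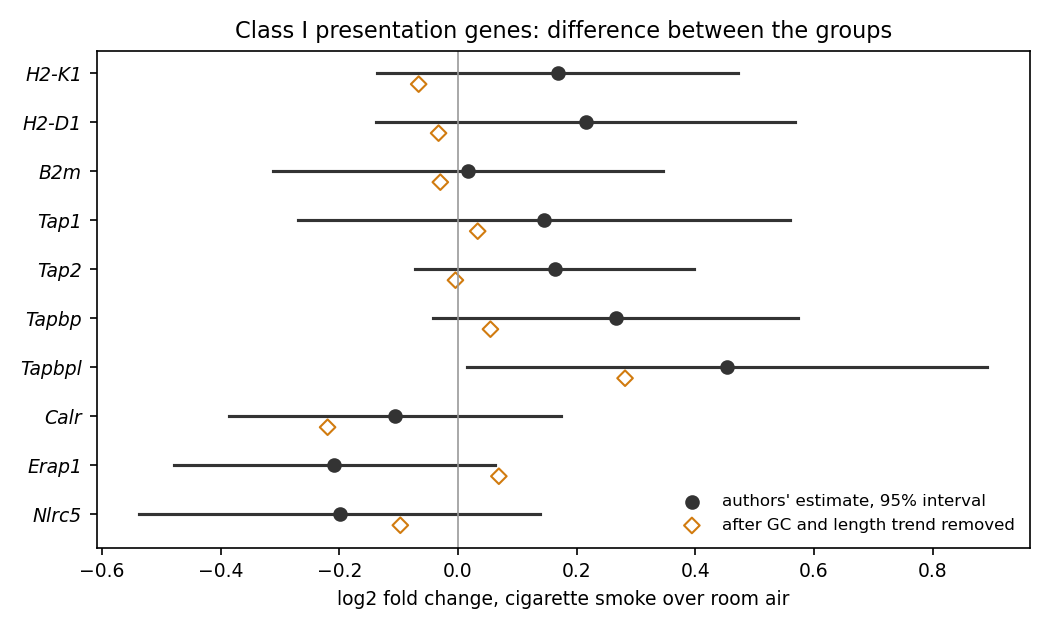
Log2 fold change of cigarette smoke over room air for the 10 genes with its 95% interval (filled points and lines), and the value with the GC and length trend of all genes removed (open diamonds). The intervals of all but Tapbpl span 0, and the median of the diamonds is -0.017.

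The estimates of most members lay along a trend that all genes showed with the GC content of their transcripts. Over all tested genes the log2 fold change rose with GC content (Spearman's rho 0.48 across 12071 genes, which are not independent replicates) and fell with transcript length (rho -0.45). GC content was 41.2% for B2m and 41.5% for Erap1 and between 50% and 57.1% for the other 8. Once the GC and length trend was removed, the median of the members was -0.017 and that of all genes -0.014. H2-K1 then stood at -0.066, H2-D1 at -0.033, B2m at -0.030 and Tap2 at -0.0042, each on the other side of 0 than before, and Erap1, before below 0, at 0.069. Tapbp (0.055), Tap1 (0.033) and Nlrc5 (-0.097) kept their sign with smaller sizes. Tapbpl stayed highest at 0.28 and Calr became lowest at -0.22, and 0 of 10 members were called among 153 genes called after the removal.

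**Figure D3:**
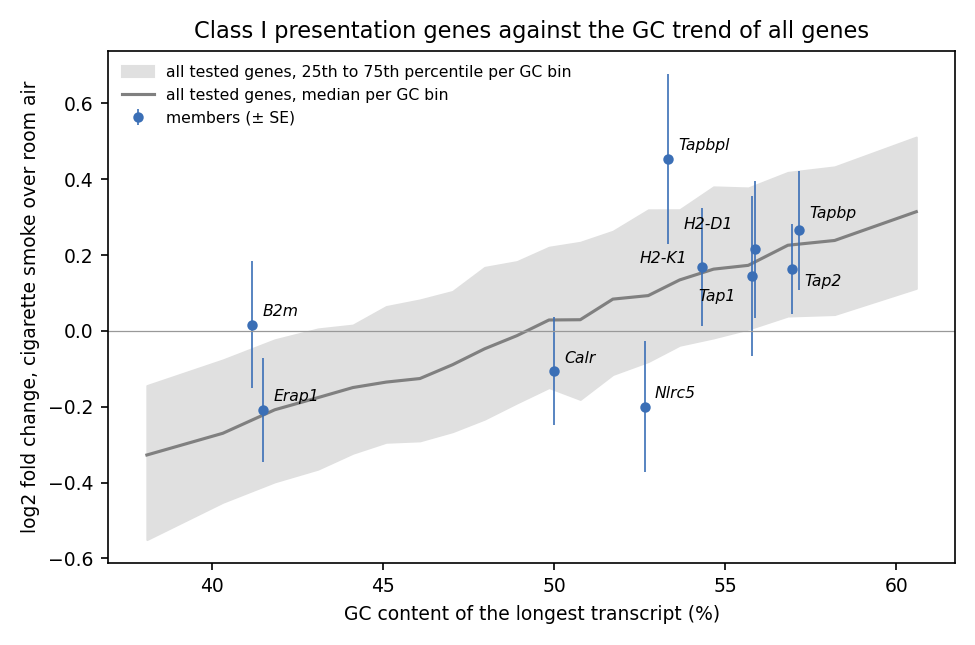
Log2 fold change of cigarette smoke over room air against the GC content of the longest transcript (%). The grey line is the median of all tested genes in 20 bins of GC content, the band runs from the 25th to the 75th percentile, and the points are the 10 members ± SE. Tapbpl lies above the band, B2m above it at 41.2%, and Nlrc5 below it.

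Of the members, 5 sit in the MHC region of chromosome 17, and the neighbours there leaned the same way. Between the outermost members, from 33915899 to 35267499, 55 of 64 other tested genes (85.9%) had a log2 fold change above 0 in the authors' deposited table, with a median of 0.24, against 49.7% of all genes tested. Of these, 5 were called higher (Agpat1, Bag6, Csnk2b, Ddx39b and H2-DMa) and 0 lower in the authors' deposited table, against 4.15% and 3.53% of all genes tested. The 64 genes had a median GC content of 56.7%. After the trend was removed their median was -0.046, and 0 of the 5 were still called. The positive estimates of H2-K1, H2-D1, Tap1, Tap2 and Tapbp thus lay among mostly positive estimates of genes nearby. These neighbours were not sorted by function, and they include Psmb9 and H2-DMa, which also act in antigen presentation.

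The wider class I pathway was read from a list of 73 further genes, of which 71 were in the table and 69 were tested. The authors' deposited table called 4 of 69 higher and 4 lower, against 4.15% and 3.53% of all genes tested. The median of the list was -0.035, with 33 of 69 above 0.

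The immunoproteasome and its activators, which cut peptides suited to class I, had 7 of 7 estimates above 0, with a median of 0.20. Of these, 2 passed the test and rose. Psmb10, an inducible catalytic subunit, went from 197 to 306 in the authors' deposited table, or 0.65 in log2 (SE 0.17, DESeq2 adjusted p = 0.00544). Psme3, a subunit of the PA28 gamma activator of the nucleus, had 0.34 (DESeq2 adjusted p = 0.00921 in the authors' deposited table). The other inducible catalytic subunits did not pass, with Psmb8 at 0.32 (DESeq2 adjusted p = 0.154) and Psmb9 at 0.13 (0.795) in the authors' deposited table. Nor did the PA28 subunits Psme1 at 0.15 and Psme2 at 0.20 (DESeq2 adjusted p = 0.568 and 0.329 in the authors' deposited table). With the GC and length trend removed, Psmb10 stood at 0.31 (adjusted p = 0.484) and Psme3 at 0.27 (adjusted p = 0.127), so neither call held. The list's median was then 0.13, with 4 of 7 above 0 and Psmb9 at -0.013, Psme1 at -0.11 and Psme2 at -0.088.

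Among the peptidases of the cytosol, 1 of 7 rose. It was Thop1, which degrades short peptides, at 0.65 (DESeq2 adjusted p = 0.0334 in the authors' deposited table), and it was no longer called with the trend removed (0.37, adjusted p = 0.529). Among 10 chaperones and other factors of the endoplasmic reticulum, 2 passed the test and fell. Estimates were above 0 for 5 and below for 5, with a median of -0.081. The highest were Sec61b at 0.40 and P4hb at 0.37 (DESeq2 adjusted p = 0.222 and 0.0954 in the authors' deposited table). The lowest was Hsp90b1 at -0.36, and Hspa5 was at -0.24 (DESeq2 adjusted p = 0.0696 and 0.0821 in the authors' deposited table). With the trend removed Sec61b stood at 0.022, P4hb at 0.23, Hsp90b1 at -0.23 and Hspa5 at -0.14. Canx, the lectin chaperone that receives new heavy chains, was at -0.29 and Uggt1, the folding sensor, at -0.34 (DESeq2 adjusted p = 0.0102 and 0.0489 in the authors' deposited table). Neither was called after the trend was removed, at -0.086 and -0.12 (adjusted p = 0.786 and 0.799). Pdia3, the oxidoreductase that works with calreticulin in the loading complex, was at -0.19 (DESeq2 adjusted p = 0.128 in the authors' deposited table).

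Of the other class I and class I-like genes, 14 of 17 were tested and 1 was called. H2-M2 rose from a mean of 2.13 to 13.8, or 2.87 in log2 (SE 0.68, DESeq2 adjusted p = 0.00212 in the authors' deposited table). It had the largest change of the wider list and was the only one of the 8 still called after the trend was removed (2.75, adjusted p = 0.0122), but its means are low. Its mean over all 24 libraries of the authors' fit was 127 in the authors' deposited table, so most of its reads came from libraries not used here. From the group means with a pseudocount of 1 its log2 ratio was 2.25, and a filter at a mean of 50 over the 2 groups leaves it out. The other 13 tested genes were not called and ran from -0.57 for H2-Q1 to 0.26 for Fcgrt in the authors' deposited table. Of the genes the naming rule lists, the authors' deposited table put H2-T23 at 0.082, H2-T22 at 0.20, H2-Q4 at -0.035 and H2-Q7 at 0.048 (DESeq2 adjusted p from 0.529 to 0.962). These genes resemble one another and the classical heavy chains, so their values are uncertain in the same way.

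Of 23 transcription factors and interferon signal genes upstream of class I, 15 had estimates below 0 and 1 was called. Their median was -0.071, and 0.0029 with the trend removed. Irf9, the DNA-binding subunit of the type I interferon response complex, fell by 0.30 on the log2 scale (DESeq2 adjusted p = 0.02 in the authors' deposited table), and had -0.30 with adjusted p = 0.0638 after the trend was removed. Irf1 was at 0.38 and Rfx5, a subunit of the complex that recruits NLRC5, at -0.33 (DESeq2 adjusted p = 0.55 and 0.219 in the authors' deposited table). The 7 cross-presentation genes had 6 estimates below 0, with a median of -0.10 before and after the trend was removed. Of them 1 passed the test and fell. It was Lnpep, an endosomal aminopeptidase related to Erap1, from 1401 to 811 and at -0.79 (SE 0.14, DESeq2 adjusted p = 3.78e-05 in the authors' deposited table), against -0.34 (adjusted p = 0.291) with the trend removed. For surface turnover, 1 of 2 genes was tested and not called.

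**Figure D4:**
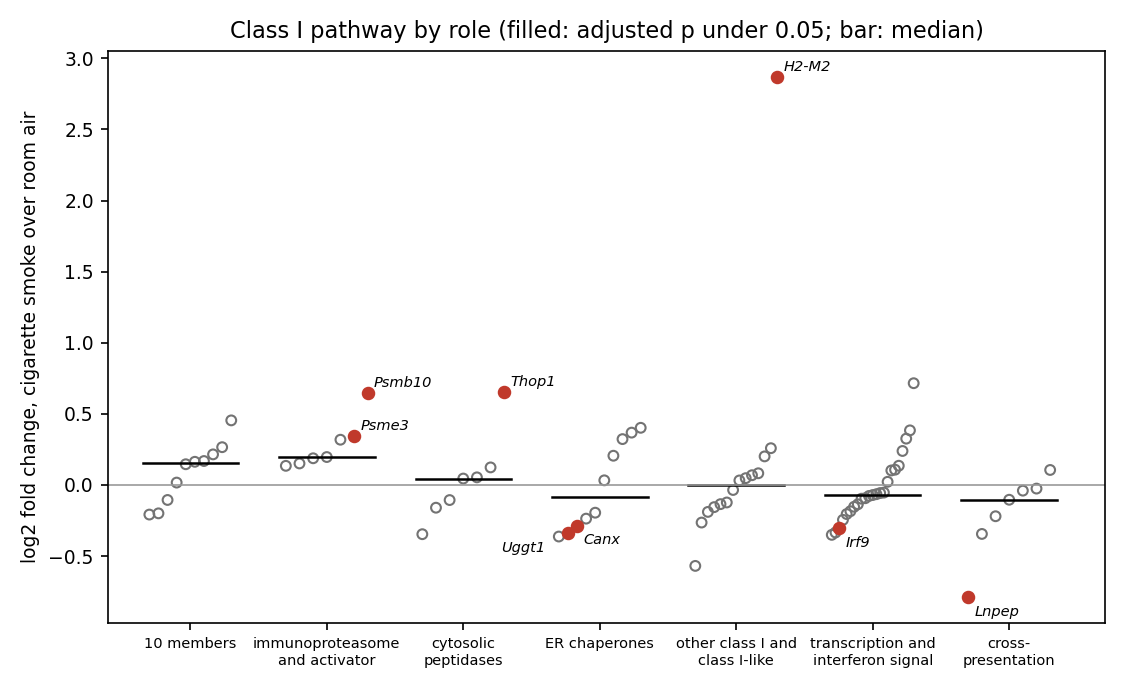
Log2 fold change of cigarette smoke over room air for the 10 members and for each role of the wider list with more than 1 gene tested. Filled points have an adjusted p under 0.05 in the authors' table, and bars are medians. No member is filled, and H2-M2 at 2.87 stands far from the rest.

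The cells carried the markers of macrophages in both groups. The 9 macrophage markers were all listed, with a summed mean of 53568 in room air and 55539 after smoke. Markers of other cells were low. The sums were 33.3 and 109 for dendritic cells (5 of 8 listed, nearly all of it Itgax, which macrophages also express), 146 and 123 for B cells (4 of 6, nearly all of it Ighm) and 29.2 and 22.4 for T and NK cells (2 of 7). Neutrophil markers (3 of 8) summed to 0.322 and 0.195, erythroid markers (0 of 6) were not listed, and stromal markers (6 of 6) summed to 47.9 and 10.8. Of the dendritic markers, Zbtb46 had means of 0.322 and 1.02, and Clec9a, Xcr1 and Siglech went from means under 1 to 0. Flt3, Ccr7, Pax5, Cd3e, Cd8a and Ly6g were not listed. No marker was called in the authors' deposited table, where Itgax was closest at 1.79 in log2 (DESeq2 adjusted p = 0.0571). It passed when only genes with a mean of at least 50 over the 2 groups were adjusted (adjusted p = 0.0489 from the DESeq2 p-values). The part of other cells in the values above was not tested.

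For splicing, the authors deposited JuncBASE output, which sorts alternative events by type and gives each an inclusion level in percent per library. It listed 13 events in 6 of the 10 members, 1 in H2-D1, 2 in H2-K1, 3 in Tap1, 1 in Tap2, 1 in Tapbp and 5 in Erap1. A limma test of the log2 odds of inclusion called 0 of 13, as it did 0% of all 10376 events. At an unadjusted limma p under 0.05 there were 1125 events in all and 2 in the members (H2-D1 and Erap1), and the lowest corrected p over all events in the authors' deposited table was 0.0847. Without the third cigarette smoke library limma called 1131 events in all and 1 in the members. The levels come without read counts, so the depth behind them is unknown. Reads of H2-D1 and H2-K1 may have been shared here as for expression, so the levels of their events are uncertain too.

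The clearest separation was in an intron of H2-D1, on chromosome 17 from 35266304 to 35266466 on the plus strand. It was retained at 18.6%, 20.61% and 19.78% in the room air libraries and at 6.67%, 7.84% and 10.42% in the cigarette smoke libraries. Every smoke library lay below every room air library. The room air mean was 19.7% ± 1.01 (SD, n = 3) and the smoke mean 8.31% ± 1.92 (SD, n = 3). They differed by -11.4 percentage points, with an exact two-sided permutation p = 0.1, the smallest that 3 against 3 can give. The limma log2 odds were -1.36 (SE 0.44, 95% interval -2.42 to -0.30, limma adjusted p = 0.35). Without the third cigarette smoke library the limma value was -1.53, with adjusted p = 0.0243. The authors' deposited table gave the event a raw p of 0.00827 and a corrected p of 1.

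That intron follows the exon of the membrane-spanning segment, as intron 5 of 7 in the full-length annotated transcript. One annotated transcript ends it at 35266466, whereas the full-length one and 1 other end it 15 bases further on, at 35266481. The junctions are shown because they fix which intron was measured. Capitals mark its first bases, kept in a partial annotated transcript, and the 15 bases from 35266467 to 35266481 that are exon after the shorter intron and intron in the full-length transcript.
H2-D1 start of the intron: aaggagaaacacagGTAAGAAAGGGCAGGG
H2-D1 spliced at the shorter intron: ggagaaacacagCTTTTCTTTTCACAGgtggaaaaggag
In the authors' merged transcript models, 7 of 15 H2-D1 models used the shorter intron, 1 the longer, 1 retained it and 6 used neither.

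Lower retention after smoke was common across the transcriptome. Of 1992 retained introns with values in all 6 libraries, 770 (38.7%) had every smoke library below every room air library, and 92.5% had a lower smoke mean, the median being -3.84 percentage points. Among the 659 with a room air mean of at least 10% the median was -6.25, and 84 of them (12.7%) differed as far down as H2-D1 or further. The mean retention per library was 15.6%, 16.7% and 14.7% in room air and 10.3%, 11.3% and 12.8% after smoke. Completeness differed between libraries too. Of all events, 398, 7 and 1 had no value in the room air libraries and 4169, 189 and 50 in the smoke libraries, and the part of this in the H2-D1 value was not tested.

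H2-K1 had the other member intron whose groups did not overlap, at 33996477 to 33996615 on the minus strand. Its levels were 76.12%, 77.86% and 81.22% in room air and 72.94%, 74.77% and 72.17% after smoke, or 78.4% ± 2.59 and 73.3% ± 1.34 (SD, n = 3 each). The difference was -5.11 percentage points (exact two-sided permutation p = 0.1, limma adjusted p = 0.666). Of the 7 annotated transcripts that splice here, 6 end the intron 27 bases earlier, at 33996504, so the event's last bases are exon in them, while 3 others retain the whole intron. The level does not separate these forms. A second H2-K1 intron, from 34000064 to 34000193, was at 8.33%, 0% and 4.17% in room air and at 0% and 10.34% in the 2 smoke libraries with a value, which overlapped.

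The 1 retained intron that JuncBASE listed in each transporter gene had low levels. Tap1 intron 4 (34190769 to 34191328) was retained at 3.03%, 2% and 6.38% in room air and at 0%, 0% and 2.33% after smoke. Tap2 intron 6 (34212068 to 34212229) was at 3.33%, 2% and 5.41% and at 0%, 5.56% and 3.51%. Both pairs of groups overlapped, with limma adjusted p of 0.47 and 0.78 and exact two-sided permutation p of 0.2 and 1.

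Tap1 also had an alternative acceptor that adds 30 bases, from 34193128 to 34193157, which nearly all transcripts kept. The level was 100%, 93.33% and 93.18% in room air and 91.67%, 96% and 93.15% after smoke. The same choice, listed a second time with other reads, had 100%, 90.57% and 92.31% against 88.24%, 94.74% and 91.07%. The groups overlapped in both listings (limma adjusted p = 0.666 and 0.63). Tapbp had an acceptor choice of 3 bases, from 33926627 to 33926629, that was close to even. The longer form took 40%, 45.7% and 49.64% in room air and 42.86%, 47.5% and 45% after smoke, or 45.1% ± 4.85 and 45.1% ± 2.32 (SD, n = 3 each). The difference of 0.00667 percentage points lay far inside the spread (limma adjusted p = 0.999, 95% interval of the log2 odds -1.05 to 1.05). The sequences across both acceptors show what each choice adds, in capitals.
Tap1 longer form: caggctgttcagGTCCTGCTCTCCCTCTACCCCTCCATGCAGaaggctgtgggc
Tap1 shorter form: caggctgttcagaaggctgtgggc
Tapbp longer form: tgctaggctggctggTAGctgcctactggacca
Tapbp shorter form: tgctaggctggctggctgcctactggacca
Both additions are multiples of 3 bases, so neither shifts the reading frame.

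The 5 Erap1 events all describe the choice of donor in its first exon, before the coding sequence, and share their junctions. Only 2 libraries of each group had values. The donor at 74639894 took 91.67% and 85.71% in room air and 100% and 96.43% after smoke in the listing by junctions alone. These groups did not overlap (limma adjusted p = 0.458, exact two-sided permutation p = 0.333). In the other listing of the same donor the levels were 91.67% and 100% against 100% and 93.1%, and the groups overlapped. The donor at 74639938 took 8.33% and 7.14% in room air and 0% and 3.57% after smoke in the listing by junctions alone. These groups did not overlap either (limma adjusted p = 0.492, exact two-sided permutation p = 0.333). No event was listed for B2m, Tapbpl, Calr or Nlrc5.

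**Figure D5:**
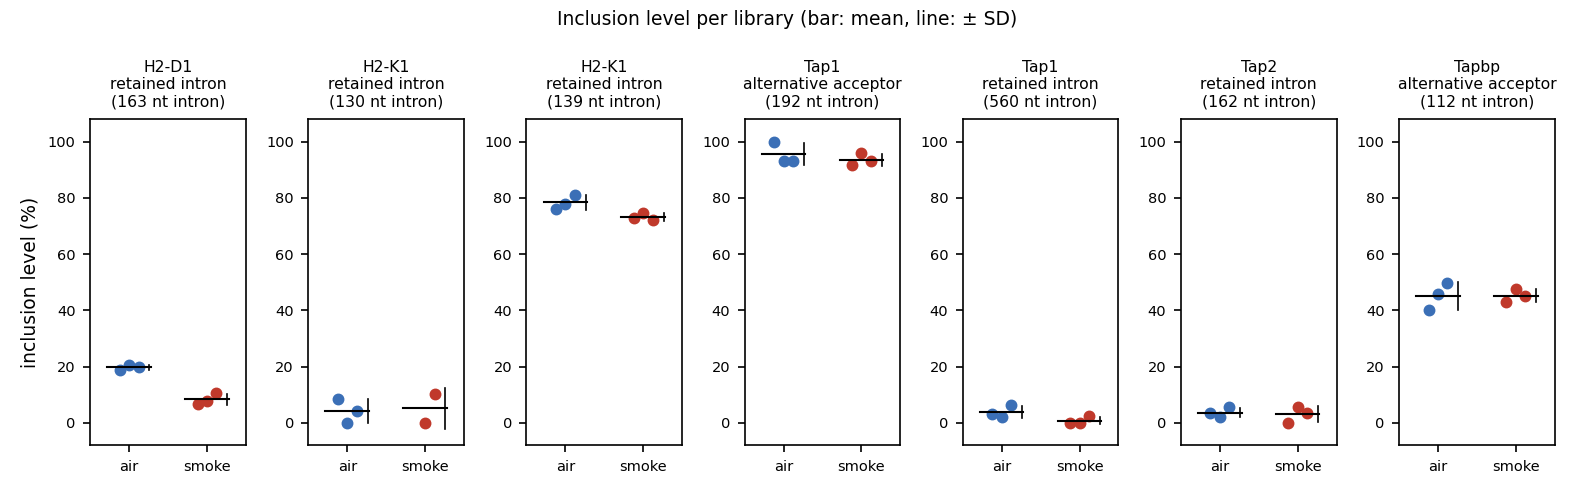
Inclusion level (%) in each of the 6 libraries for the events of H2-D1, H2-K1, Tap1, Tap2 and Tapbp. Points are libraries, bars are means and lines ± SD. The H2-D1 intron has means of 19.7% and 8.31% with no overlap, whereas the Tap1, Tap2 and Tapbp events overlap.

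A second program, rMATS, compared retained introns between 2 sets of samples whose groups the authors' deposited table does not state, so no direction is given. It listed 10 introns in 4 members (H2-K1, B2m, Tap1 and Tap2), and its false discovery rate was under 0.05 for 0 of 10, against 14.5% of all 3887 in the authors' deposited table. The lowest was 0.207, for the H2-K1 intron from 33996477 to 33996615, with a difference of 4.2 percentage points between the sets in the authors' deposited table. Tap2 intron 6 differed by 2.2 points at 0.391 in the authors' deposited table. The largest difference of the 10 in the authors' deposited table was 50 percentage points (rate 1), for a Tap2 intron from 34204203 to 34204450 outside the coding sequence. The H2-D1 intron was not among those listed.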

How the data were processed

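The authors deposited group means as normalized counts (a signal, not raw counts) with log2 fold changes, Wald scores and p-values from DESeq2, per the file headers. That fit used 24 libraries, of which 18 are not used here. The deposited JuncBASE percent inclusion levels and p-values, and rMATS differences and false discovery rates, are the authors' own. The submitters' processing notes name STAR, DESeq2, SAMtools 1.9, bedtools 2.27.1 and mm10. The count of rMATS per-sample columns not used is 6, since their sets carry no group. Exon starts in many of the authors' merged transcript models are 1 base lower than annotated. Of 871 introns in members 268 equal the annotation, and 551 more do once the exon starts are raised by 1 base.

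Intervals are the estimate ± 1.96 SE. Positions, lengths and GC content come from GENCODE M21. The GC and length trend used natural splines (4 degrees of freedom each, patsy 1.0.2) in a least squares fit weighted by the inverse of the squared SE (statsmodels 0.14.6), and each residual was tested against its deposited SE. JuncBASE levels were tested with limma 3.58.1 in R 4.3.3 on log2((p + 1)/(100 - p + 1)), adjusted by Benjamini-Hochberg over all events, and single events by exact permutation. The highest share of identical levels in any pair of libraries was 2.00%, counting only levels strictly between none and full inclusion. Depth per library is unknown for expression and splicing.

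The rule for names took all members and their events, all genes of the wider list with an adjusted p under 0.05 and 14 others whatever their values. A few genes outside the rule are named to show the spread of their role. Some items under this rule are not reported here. The members and lists were chosen with earlier results of these data known. Alternatives covered the threshold, gene filter, pseudocounts, scale, centring, trend, replicate block and each library left out.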

Additional observations from a re-analysis of the deposited data

How the results depend on the processing

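No member was called in expression under any threshold, filter or trend setting tried (0 of 10 each time). Removing the GC and length trend turned the sign of H2-K1 (-0.066), H2-D1 (-0.033), B2m (-0.030), Tap2 (-0.0042) and Erap1 (0.069). Uggt1 was also lost when the median of all genes was subtracted (adjusted p = 0.0518), and Uggt1 and Thop1 when p-values were adjusted over every gene with a DESeq2 p (adjusted p = 0.0769 and 0.0527). Events called by limma over all went from 0 to 5 on the percent scale and to 23 among events with 6 values. With a library left out they ranged from 0 to 1131 and member events from 0 to 1, both highest without the third cigarette smoke library. The H2-D1 log2 odds then ranged from -1.53 (limma adjusted p = 0.0243, without the same library) to -1.21.

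With the replicate block 0 events were called. Whether the numbers pair the samples is not known. Same-number correlations of deviations were 0.0177, -0.0404 and -0.0888 over 5933 events, and different-number ones ran from -0.0720 to 0.1271. With 3 libraries per group these values cannot tell pairing from its absence. The H2-K1 intron from 34000064 turned from -0.096 to 0.061 with a pseudocount of 5, to 1.00 on the percent scale and to 0.61 with the replicate block. With a library left out its log2 odds ranged from -1.93 to 1.73. Those of the Tap1 acceptor ranged from -1.41 to 0.12 and from -1.72 to 0.039 in its other listing, of Tap2 intron 6 from -1.07 to 0.33, of the Tapbp acceptor from -0.15 to 0.13, and of an Erap1 donor pair from -1.80 to 1.54 and from -1.54 to 1.80. The cause was not tested. No depth is known for any splicing level.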
